A study of Homo sapiens with 6 samples.

Results

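Metallothioneins, the zinc sensor that switches them on and the exporter that works beside them were followed in 2 gastric cancer cell lines, in libraries labelled as overexpressing NINJ1 from a lentivirus or as negative control. The 8 genes were taken by symbol from the 51103 genes of each deposited table: the metallothioneins MT1E, MT1F, MT1G, MT1X, MT1M and MT2A, the transcription factor MTF1 and the zinc exporter SLC30A1. All 8 were found in all 6 libraries, 6 passed the filter on low counts, and MT1G and MT1M had no count in any library.

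The libraries were AGS NINJ1 (2), AGS control (1), HGC-27 NINJ1 (2) and HGC-27 control (1), without drug or metal treatment in the labels. AGS is a gastric adenocarcinoma line and HGC-27 comes from a gastric carcinoma without differentiation. Every group had been transduced, the controls with a negative control virus, and RNA was harvested after 48 h in 6-well plates. The promoter of the NINJ1 transgene is not given in the sources used here. The labels do not say how the replicates arose, and the p-values speak only for the spread among libraries, which may be technical.

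Metallothioneins are small, cysteine-rich proteins that bind zinc and copper and take up toxic metals such as cadmium. When zinc in the cell rises, MTF1 binds it through its zinc fingers and activates genes whose promoters carry metal response elements, among them the metallothioneins and SLC30A1. SLC30A1 (ZnT1) moves zinc out across the plasma membrane, and metallothionein expression is known to vary widely between tumours and tumour cell lines.

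Total counts per library ran from 12619684 to 18175697. For the NINJ1 replicate 2 libraries the sample title names one line and the file name the other. Here the lines are those of the file names, so that AGS NINJ1 replicate 2 is the library titled HGC-27 and HGC-27 NINJ1 replicate 2 is the one titled AGS. As a check, 15 genes reached 100 counts in each undisputed HGC-27 library and 0 in the undisputed AGS ones, and the library titled AGS had at least 10 counts for 15 and the library titled HGC-27 for 0. Of 13 genes chosen the other way round, for AGS, these numbers were 0 and 13. By these genes both disputed libraries went with the line of their file name and not with that of their title. The HGC-27 control also stood apart, with 2.31% of its counts in genes of over 60% GC against 9.25 to 11.3% in the other 5 libraries, and 19371 genes with a count against 22839 to 23396. The main tests that use it are therefore given also after a correction for GC content; values not called corrected are as counted. The epithelial keratins KRT8 and KRT18 were at 48.6 to 82.8 and 64.6 to 111 FPKM in the 6 libraries, while CDH1 was at most 0.454 FPKM and KRT19 at most 0.0339 FPKM. EPCAM was at 2.57 to 7.93 FPKM and CLDN7 at 0.287 to 12.9 FPKM. Of the blood cell markers, CD3E and HBB had no count, PTPRC had at most 1, CD79A at most 2 and CD14 at most 4. HBA1 had 26 and 26 counts in AGS NINJ1 libraries, 19 in the AGS control and 0 in each HGC-27 library.

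NINJ1 (ninjurin-1), the targeted gene, encodes a cell-surface adhesion protein that also acts in plasma membrane rupture. It had 261 and 221 counts in AGS NINJ1 libraries, against 402 in the AGS control. The count was 264 and 300 in HGC-27 NINJ1 libraries, against 71 in the HGC-27 control. On the log2 scale NINJ1 was lower in AGS NINJ1 by -0.68 (SE 0.19, adjusted p = 0.0148) and higher in HGC-27 NINJ1 by 1.89 (SE 0.24, adjusted p = 3.22e-08), the second being 0.49 with an adjusted p of 0.0725 after GC correction. Reads of the cells' own NINJ1 and of a transgene cannot be told apart in these gene counts. The AGS NINJ1 libraries thus had less NINJ1 message than their control, against the label, and the directions given for AGS below are those of the libraries labelled NINJ1.

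The 250 bases before the RefSeq start (build GRCh38.p14) of the MT2A, MT1X and SLC30A1 genes are shown because they carry the letters of the metal response element core, TGCACNC or TGCGCNC, on either strand. Capitals mark these matches, written as they stand on the gene's strand, so that matches on the other strand read GNGTGCA or GNGCGCA. MT2A (chr16:56608334-56608583, plus strand), MT1X (chr16:56682220-56682469, plus strand) and SLC30A1 (chr1:211579162-211579411, minus strand) are given 5′ to 3′.
MT2A: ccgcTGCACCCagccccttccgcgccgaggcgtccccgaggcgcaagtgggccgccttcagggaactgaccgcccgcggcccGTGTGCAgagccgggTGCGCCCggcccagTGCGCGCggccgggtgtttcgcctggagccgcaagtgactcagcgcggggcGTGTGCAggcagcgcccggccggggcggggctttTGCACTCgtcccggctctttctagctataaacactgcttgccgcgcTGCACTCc
MT1X: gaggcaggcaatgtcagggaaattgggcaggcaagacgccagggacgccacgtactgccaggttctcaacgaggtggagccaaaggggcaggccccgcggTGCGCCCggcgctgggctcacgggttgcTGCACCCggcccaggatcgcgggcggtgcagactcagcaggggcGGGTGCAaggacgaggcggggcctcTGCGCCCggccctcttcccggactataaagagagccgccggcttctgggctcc
SLC30A1: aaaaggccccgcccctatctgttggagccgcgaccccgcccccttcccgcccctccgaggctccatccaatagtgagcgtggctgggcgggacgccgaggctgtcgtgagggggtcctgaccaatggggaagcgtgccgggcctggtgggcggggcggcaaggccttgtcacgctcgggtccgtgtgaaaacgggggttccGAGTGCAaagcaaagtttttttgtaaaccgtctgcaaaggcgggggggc
MT2A had 7 matches, the first base of each at -246, -168, -153, -139, -88, -54 and -8 from the start. MT1X had 4, at -150, -122, -78 and -53, and SLC30A1 had 1, at -49. The 250 bases before the MTF1 start (chr1:37859593-37859842, minus strand) had 0. Of 35116 promoters of the same length, 24.8% held at least 1 match, 0.370% at least 4 and 0.0313% at least 7. Few other promoters thus held as many matches as those of MT2A and MT1X, while that of SLC30A1 did not stand out. Promoters of 4 of the 8 genes were matched in the RefSeq table, and MT1E, MT1F, MT1G and MT1M are named only. RefSeq and GENCODE starts differ: the MT2A window lies inside the GENCODE 29 extent of the gene, whose first annotated base is 56608199. A match to these letters is a description of the sequence and not a measured binding site.

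The metallothionein genes lie together on chromosome 16 (GRCh38), where the tables list 18 genes over 119.1 kb between MT4 and MT1X. Only 5 of them had any count in any library and 13 had none. MT2A (56608199 to 56609497, plus strand), the most widely expressed human metallothionein, led in every library. MT1E (56625475 to 56627112), MT1F (56657694 to 56660698) and MT1X (56682424 to 56684196), all on the plus strand, and the pseudogene MT1DP were the other genes with counts. Members without a count were MT1M (56632233 to 56633986, plus strand) and MT1G (56666731 to 56668065, minus strand), for which 0 counts allow up to 3 counts per library, or 0.165 to 0.238 CPM of the library total. The other functional metallothioneins of the family, MT1A, MT1B, MT1H, MT1HL1, MT3 and MT4, also had 0 counts in each library. MT3 is best known from brain and MT4 from stratified epithelia. The neighbours on either side were expressed throughout, with BBS2 at 2.47 to 5.24 FPKM and NUP93 at 10.3 to 13.0 FPKM.

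**Figure D1:**
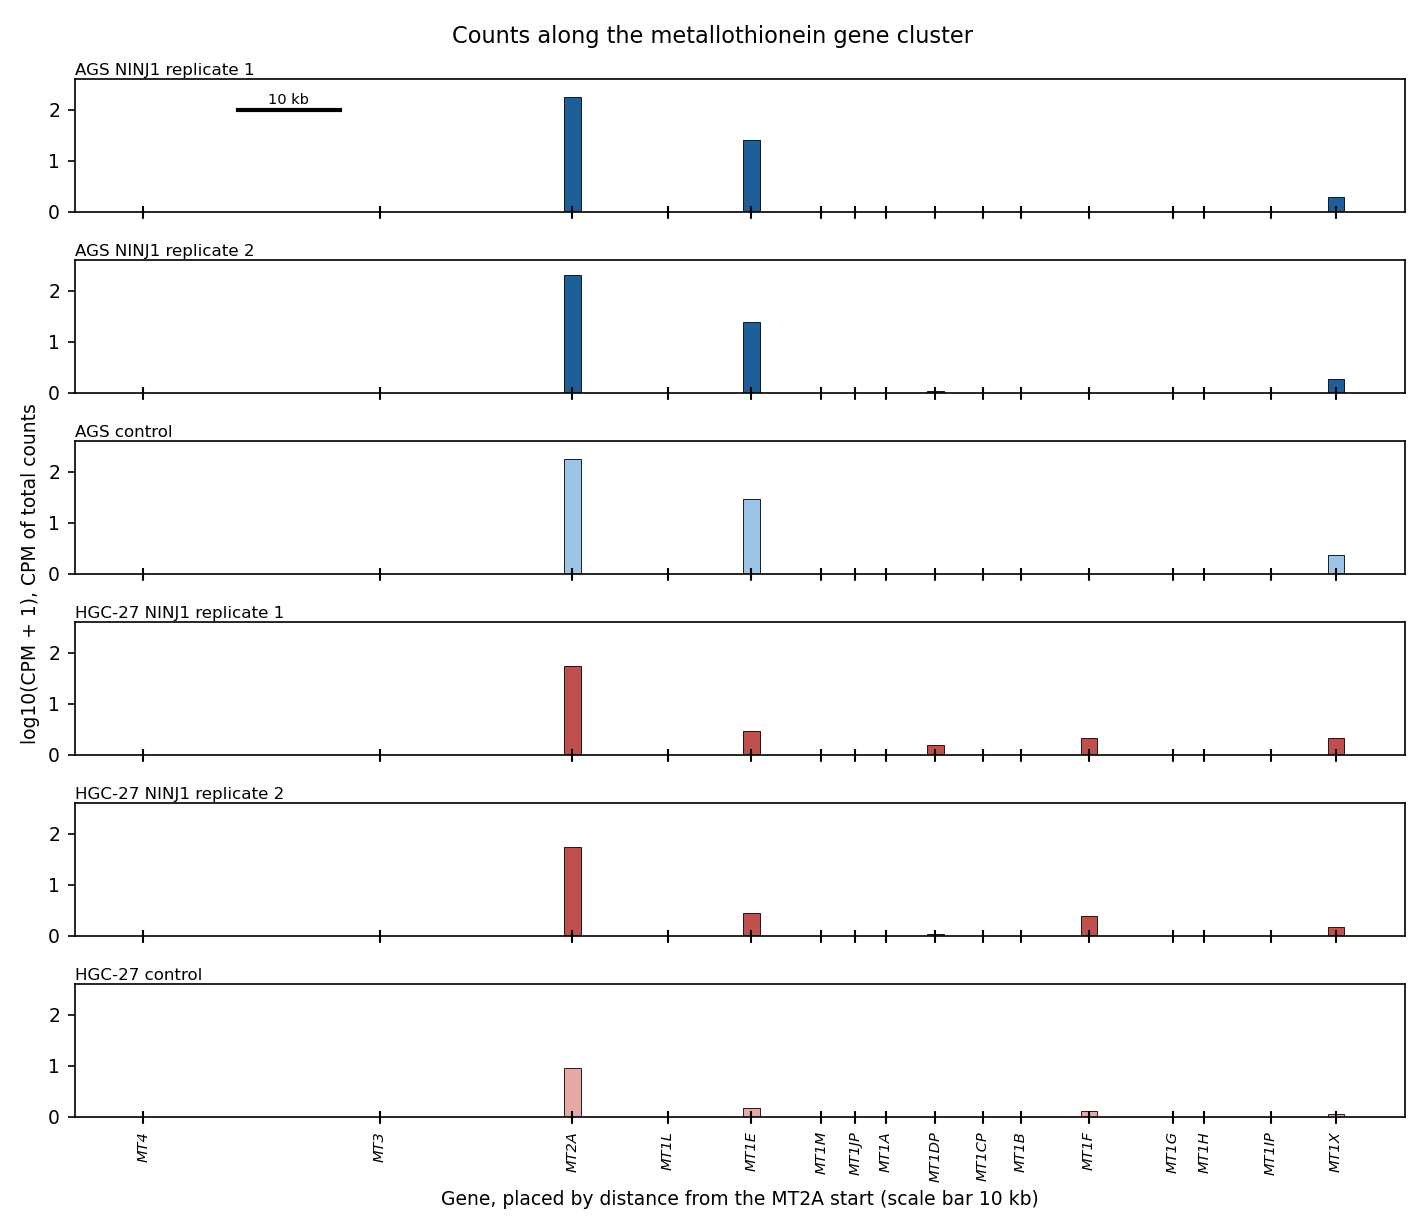
Counts along the metallothionein gene cluster, 1 row per library (AGS above HGC-27, NINJ1 above control), for the 16 of its 18 genes that have a metallothionein symbol; the vertical axis is log10(CPM + 1), with CPM of total counts, and the horizontal axis places each gene by its distance from the MT2A start (ticks, with a 10 kb scale bar). MT2A has the tallest bar in each row, MT1E stands far above the remaining genes in the AGS rows and not in the HGC-27 rows, and MT1F has a bar in the HGC-27 rows alone.

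Compared per length, as FPKM, MT2A was at 133.8 and 154.9 in AGS NINJ1 libraries and 135.7 in the AGS control. It was at 42.0 and 41.2 FPKM in HGC-27 NINJ1 libraries and 6.06 FPKM in the HGC-27 control. By FPKM, MT2A ranked 141, 119 and 153 among 19922 protein-coding genes in AGS NINJ1 replicate 1, AGS NINJ1 replicate 2 and the AGS control. Its rank was 873 and 937 in HGC-27 NINJ1 libraries and 5119 in the HGC-27 control. MT2A was therefore among the most abundant messages of AGS in all 3 libraries, and as counted the HGC-27 control stood far below the other 5. After GC correction that control stayed the lowest, by less, at 15.4 CPM against 47.8 and 43.7 CPM in HGC-27 NINJ1.

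MT1E, the second metallothionein of AGS, was at 23.5 and 22.7 FPKM in AGS NINJ1 libraries and 26.6 FPKM in the AGS control. In HGC-27 it was at 1.77 and 1.71 FPKM with NINJ1 and 0.471 FPKM in the control. MT2A made up 84.8% and 87.0% of the summed metallothionein FPKM in AGS NINJ1 libraries and 83.2% in the AGS control, against 93.4% and 93.8% in HGC-27 NINJ1 and 89.9% in the HGC-27 control. MT1E took 12.7 to 16.3% of that sum in AGS libraries and 3.88 to 6.99% in HGC-27 libraries. The 2 lines thus differed in the make-up of the pool as well as in its size, which was 157.8 and 178.1 FPKM in AGS NINJ1 and 44.97 and 43.98 FPKM in HGC-27 NINJ1.

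SLC30A1 and MTF1 were counted well in each library. SLC30A1 was at 29.6 and 27.9 FPKM in AGS NINJ1, 24.2 in the AGS control, 35.4 and 30.2 in HGC-27 NINJ1 and 66.7 in the HGC-27 control. The HGC-27 control was the highest and the AGS control the lowest, with the 4 NINJ1 libraries close together between them. MTF1 was at 5.66 and 5.59 FPKM in AGS NINJ1, 2.54 in the AGS control, 5.94 and 6.45 in HGC-27 NINJ1 and 4.30 in the HGC-27 control. By FPKM MTF1 ranked between 6088 and 6910 of the protein-coding genes in 5 libraries and 9221 in the AGS control, which stood below the others.

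MT1F and MT1X were near the limit of what these libraries can count. MT1F had 16 and 22 counts in HGC-27 NINJ1 libraries and 5 in the HGC-27 control, and 0 in each of the 3 AGS libraries. MT1X had 12 and 11 counts in AGS NINJ1, 19 in the AGS control, 16 and 7 in HGC-27 NINJ1 and 2 in the HGC-27 control. For both genes counting error alone is a large share of each value.

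Sequence shared among the copies limits these values. Of the 50-base windows of each transcript, 14.7% of MT1X, 14.3% of MT1G, 10.6% of MT1E, 7.05% of MT1M, 4.68% of MT2A and 0.0656% of MT1F also occur in transcripts of other genes, mostly other metallothioneins and their pseudogenes. At 100 bases the share was 0 for all 8 members except MT1X, with 7.68%, shared with a transcript annotated over it on the same strand (AC026461.1, 0 counts in each library). The authors' treatment of reads that fit several genes is not given in the sources used here, so low counts of MT1E and MT1X, and the absence of counts for MT1G, are uncertain. The pseudogenes with counts were MT1DP, with 0 and 1 in AGS NINJ1, 0 in the AGS control, 8 and 1 in HGC-27 NINJ1 and 0 in its control, MT1XP1, with at most 10, and MT1P1, with at most 4.

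The AGS NINJ1 libraries were compared with the HGC-27 NINJ1 libraries, the only contrast here with 2 libraries on each side. Levels are given as CPM scaled by TMM, a factor per library that evens out composition. Of 17617 genes tested with edgeR's quasi-likelihood test, 40.2% passed an adjusted p of 0.05 (20.2% higher and 20.0% lower in AGS), and of the 6 tested members 2 were higher and 1 lower. The members' median difference was 0.02 and that of all genes -0.01 (log2).

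MT1E was at 23.3 and 22.8 scaled CPM in AGS NINJ1 libraries, against 1.76 and 1.72 in HGC-27 NINJ1 libraries. MT1E was thus 13.2-fold higher in AGS (log2 3.72, SE 0.22, adjusted p = 8.98e-16). MT2A was at 163.8 and 192.3 scaled CPM in AGS NINJ1, against 51.6 and 51.2 in HGC-27 NINJ1. It was 3.46-fold higher in AGS (log2 1.79, SE 0.12, adjusted p = 1.07e-14). MT1F was lower in AGS NINJ1, where both libraries had 0 counts, against 1.05 and 1.40 scaled CPM in HGC-27 NINJ1. With 3 counts set for each AGS library it was at least 5.56-fold lower (edgeR adjusted p = 0.000262). That call was lost with treatment as an additive term over all 6 libraries (adjusted p = 0.0644) and without both replicate 2 libraries (adjusted p = 0.374). The 3 metallothioneins that differed thus did not share a direction. In bulk RNA, fewer cells with a message and less message per cell cannot be told apart.

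For the regulator MTF1 and the exporter SLC30A1 the difference between the lines did not pass the test as counted. MTF1 was at 42.8 and 42.8 scaled CPM in AGS NINJ1, against 45.1 and 49.5 in HGC-27 NINJ1 (log2 -0.14, SE 0.13, adjusted p = 0.392). SLC30A1 was at 152.6 and 146.2 scaled CPM in AGS NINJ1, against 183.6 and 158.1 in HGC-27 NINJ1 (log2 -0.19, SE 0.11, adjusted p = 0.156). After GC correction SLC30A1 passed the threshold at -0.31 (adjusted p = 0.00291), as it did without HGC-27 NINJ1 replicate 2 (-0.30, adjusted p = 0.00411). MT1X did not pass (log2 0.18, SE 0.65, adjusted p = 0.850).

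In the 4 libraries of undisputed line, with control and NINJ1 of each line together, MT1E and MT2A were still called higher in AGS, by 4.54 (SE 0.88, adjusted p = 3.25e-05) and 2.89 (SE 0.71, adjusted p = 0.00308). That fit was not corrected for GC content and includes the HGC-27 control, the lowest library for MT2A, at 9.85 scaled CPM, and for MT1E, at 0.62. With the lines read from the titles, each pair of NINJ1 libraries holds 1 library of each file-name line, and no member and no gene of the 17617 was called. MT1E was then at 0.02 (SE 1.56) and MT2A at -0.18 (SE 0.82) on the log2 scale. The line difference therefore rests on the file names for the disputed libraries, and it stands in the undisputed libraries with smaller counts of all genes called (575 against 7084).

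**Figure D2:**
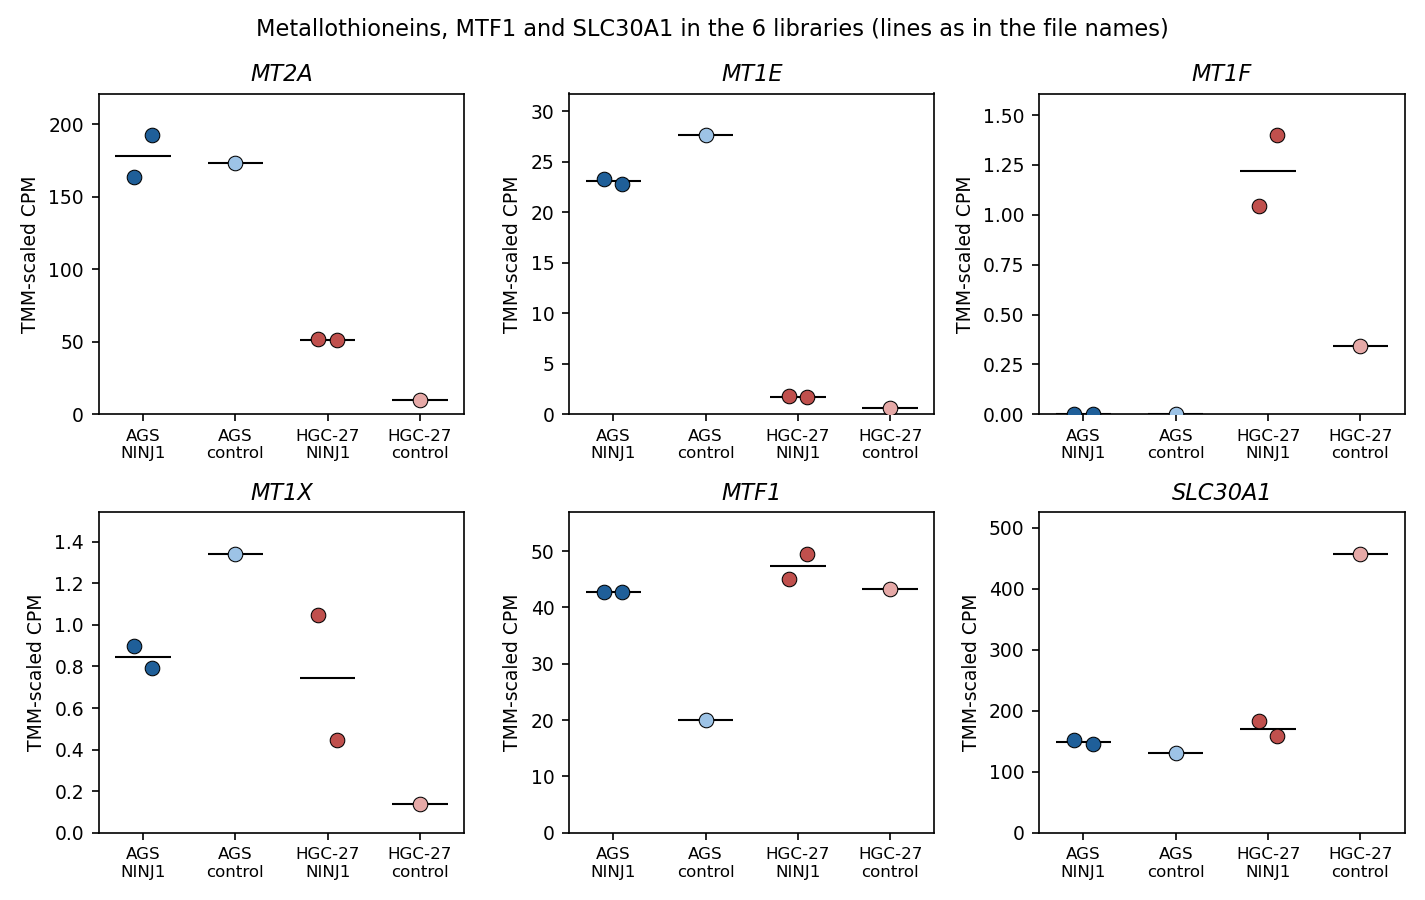
TMM-scaled CPM of the 6 members with counts (1 panel each, linear axis from 0), 1 point per library, grouped as AGS NINJ1, AGS control, HGC-27 NINJ1 and HGC-27 control by the file names; horizontal lines are group means. AGS points lie above HGC-27 points for MT2A and MT1E; the single AGS control lies below all others for MTF1, and the single HGC-27 control lies above all others for SLC30A1.

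In AGS, where the libraries labelled NINJ1 had less NINJ1 message than the control, MTF1 was the only member to pass the test of NINJ1 against control. MTF1 (chromosome 1, 37809567 to 37859620, minus strand) had 573 and 595 counts in AGS NINJ1 libraries, against 284 in the AGS control. On the scaled CPM scale it was at 42.8 and 42.8 in AGS NINJ1, against 20.1 in the AGS control. It was 2.13-fold higher (log2 1.09, SE 0.17, adjusted p = 2.18e-05). In that comparison 15.0% of all tested genes passed, 5.73% higher and 9.30% lower, so 1 of 6 tested members is a share near the background. The other tested members with counts in AGS did not pass, and the median log2 change of the 5 members with counts was 0.04, against 0.00 for all genes.

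The genes that MTF1 is known to activate gave these values in the same libraries. MT2A was at 163.8 and 192.3 scaled CPM in AGS NINJ1, against 173.6 in the AGS control (log2 0.04, SE 0.13, adjusted p = 0.892), with the control between the NINJ1 libraries. MT1E was at 23.3 and 22.8, against 27.6 scaled CPM (log2 -0.26, SE 0.20, adjusted p = 0.413). MT1X gave -0.66 (SE 0.74, adjusted p = 0.599) from few counts. SLC30A1 was at 152.6 and 146.2 scaled CPM, against 130.7 (log2 0.19, SE 0.13, adjusted p = 0.360). The higher MTF1 message was thus seen beside metallothionein and exporter messages whose changes did not pass, with standard errors of 0.13 to 0.20 for the 3 well-counted genes.

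After GC correction MTF1 was at 1.07 (adjusted p = 1.52e-05). Over the alternatives other than the title lines it ran from 1.06 to 1.11, with adjusted p from 1.33e-12 to 0.000486. Leaving out AGS NINJ1 replicate 2 gave 1.09 (adjusted p = 0.000486), although the genes called in all fell to 935 from the 2648 of the full set, and without AGS NINJ1 replicate 1 they numbered 1438. Without HGC-27 NINJ1 replicate 1 or replicate 2, which help to set the spread, they numbered 4712 and 4702, and MTF1 stayed called. With the lines of the titles MTF1 was at 1.20 (SE 0.27) and was not called (adjusted p = 0.884), where 0 genes were called in all. The contrast has 1 control library, and whatever else set that library apart is part of the difference. In the same contrast 4 of 5 tested endothelial and fibroblast markers, 3 of 6 mesenchymal markers and 2 of 5 epithelial markers were lower. Of all genes 9.30% were lower there. Their summed levels were 3.35 to 3.96, 130.4 to 142.0 and 120.0 to 122.9 FPKM in AGS NINJ1, against 11.4, 179.3 and 152.3 FPKM in the AGS control. The mesenchymal sum holds COL5A1, at 20.3 and 21.0 FPKM in AGS NINJ1, against 72.0 in the AGS control, with TGFBI and FN1 also lower. VIM (84.3 and 94.3, against 75.5 FPKM) and ZEB1 (14.5 and 14.8, against 11.0 FPKM) stood the other way, so these markers did not share a direction. The part of the markers in the result was not tested.

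In HGC-27, NINJ1 against control, MT2A and MT1E were higher and SLC30A1 was lower. Of all genes tested 63.0% passed, 34.0% higher and 29.1% lower, so 3 of 6 members is a share near the background. MT2A had 790 and 806 counts in HGC-27 NINJ1 libraries, against 143 in the HGC-27 control. On the scaled CPM scale it was at 51.6 and 51.2 in HGC-27 NINJ1, against 9.85 in the control, 5.22-fold higher (log2 2.38, SE 0.18, adjusted p = 1.99e-13). After GC correction the values were 47.8 and 43.7 CPM, against 15.4, and the difference was 2.98-fold (log2 1.57, adjusted p = 2.37e-08). MT2A thus kept its direction and call with a smaller size.

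MT1E had 27 and 27 counts in HGC-27 NINJ1, against 9 in the HGC-27 control, 2.78-fold higher (log2 1.48, SE 0.47, adjusted p = 0.00644). The GC correction ended that call (log2 0.72, adjusted p = 0.216). MT1F had 16 and 22 counts in HGC-27 NINJ1, against 5 (log2 1.80, SE 1.00, adjusted p = 0.117). For MT1X the scaled ratio of 23 counts in HGC-27 NINJ1 to 2 in the control was 5.38, with a 95% interval of 1.33 to 47.1 that covers counting error only (edgeR adjusted p = 0.0652). Without HGC-27 NINJ1 replicate 2 the edgeR test called MT1X (adjusted p = 0.0266). After GC correction MT1F was at 0.27 (edgeR adjusted p = 0.844) and MT1X at 1.61 (edgeR adjusted p = 0.264). MT2A was thus the only metallothionein called after correction. The HGC-27 control was the deepest library of the 6. The transcripts of the 4 counted metallothioneins have 53.5 to 58.2% GC. Genes of 50 to 60% GC had a median log2 deviation of -0.79 in the HGC-27 control, against 0.13 to 0.25 in the other 5 libraries.

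SLC30A1 (chromosome 1, 211571568 to 211578742, minus strand) moved the other way. It had 2808 and 2487 counts in HGC-27 NINJ1 libraries, against 6635 in the HGC-27 control, and on the scaled CPM scale 183.6 and 158.1, against 457.3. It was 2.68-fold lower (log2 -1.42, SE 0.13, adjusted p = 8.92e-12), and the control lay above all 5 other libraries. Its longest transcript has 38.0% GC, and genes under 45% GC had a median log2 deviation of 0.51 in the HGC-27 control, against -0.19 to -0.03 in the others. After GC correction SLC30A1 was at 192.6 and 186.9 CPM in HGC-27 NINJ1, against 301.3, a 1.59-fold lower level (log2 -0.67, adjusted p = 2.86e-06). The call held and the size shrank.

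MTF1 was at 45.1 and 49.5 scaled CPM in HGC-27 NINJ1, against 43.2 in the HGC-27 control, a difference that did not pass (log2 0.13, SE 0.16, adjusted p = 0.480). It did pass after GC correction, at 0.33 (adjusted p = 0.0426). The ratio of MT2A to SLC30A1 in FPKM, a zinc-binding protein's message over an exporter's, was 1.19 and 1.37 in HGC-27 NINJ1, against 0.0908 in the HGC-27 control. The same ratio was 4.52 and 5.54 in AGS NINJ1 and 5.60 in the AGS control, with the HGC-27 control far below the other 5. The MT2A transcript has 53.9% GC and that of SLC30A1 38.0%, and after GC correction the ratio was 1.05 and 0.985 in HGC-27 NINJ1, against 0.215 in the HGC-27 control. The corrected ratio was 4.10 and 5.02 in AGS NINJ1 and 4.45 in the AGS control, so the HGC-27 control stayed the lowest, by less. Leaving out either HGC-27 NINJ1 library left MT2A and SLC30A1 called. With the lines of the titles SLC30A1 was still called (-1.47, adjusted p = 0.0348), while MT2A (3.63, SE 1.24, adjusted p = 0.122) and MT1E (4.29, SE 2.52, adjusted p = 0.292) were not. In this contrast 4 of 5 epithelial, 5 of 6 mesenchymal and 2 of 5 endothelial and fibroblast markers were lower. There 1 epithelial and 1 endothelial or fibroblast marker were higher, where 29.1% of all genes were lower and 34.0% higher. After GC correction 4, 4 and 3 were lower and 0 higher in each list, where 48.8% of all genes passed. As counted their summed levels were 124.7 to 147.7, 99.3 to 103.1 and 5.54 to 5.90 FPKM in HGC-27 NINJ1, against 202.6, 143.6 and 1.45 FPKM in the control, and their part in the result was not tested. The last of these sums is mostly COL1A1, a collagen gene of 61.1% GC, which after GC correction was at 40.7 and 38.4 CPM in HGC-27 NINJ1, against 31.7 in the control (log2 0.32, adjusted p = 0.112).

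**Figure D3:**
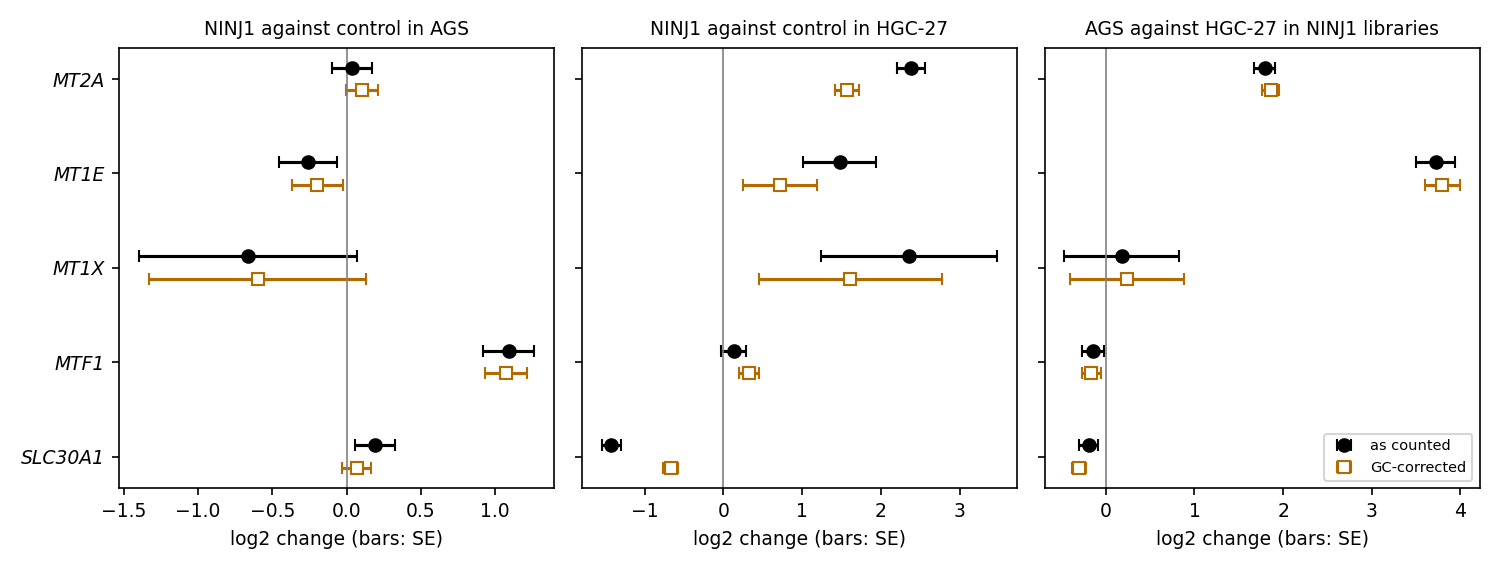
Log2 changes of 5 members with their standard errors (horizontal bars) in NINJ1 against control in AGS, NINJ1 against control in HGC-27, and AGS against HGC-27 among NINJ1 libraries, as counted (filled circles) and after GC correction (open squares); MT1F is left out because its AGS libraries have no count, and the 3 horizontal axes differ in range. In HGC-27, MT2A is at 2.38 as counted and 1.57 corrected and SLC30A1 at -1.42 and -0.67, while MTF1 in AGS is at 1.09 and 1.07.

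The difference between the NINJ1 contrasts of the lines, AGS minus HGC-27, was tested directly, with the AGS libraries labelled NINJ1 taken by their label. It passed for 54.2% of all genes, 23.9% higher and 30.2% lower, and for 4 of the 6 tested members, 2 in each direction. It was -2.35 for MT2A (SE 0.22, adjusted p = 8.07e-11), -1.74 for MT1E (SE 0.51, adjusted p = 0.00416), 0.96 for MTF1 (SE 0.23, adjusted p = 0.000626) and 1.61 for SLC30A1 (SE 0.19, adjusted p = 7.27e-09). MT1X missed the threshold at -3.02 (SE 1.35, adjusted p = 0.0567), and for MT1F the AGS side has no count. After GC correction MT2A was at -1.47 (adjusted p = 3.06e-06), MTF1 at 0.75 (adjusted p = 0.00427) and SLC30A1 at 0.74 (adjusted p = 0.000189), while MT1E no longer passed at -0.91 (adjusted p = 0.162). With the title lines none of the 4 was called. The contrast puts 2 single control libraries against each other, and their differences in preparation and in line cannot be told apart.

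Over both lines together, with the line as an additive term, no member passed (0 of 6), and 0% of all genes did. At an unadjusted p under 0.05 there were 2257 genes and 0 members, and DESeq2 called 315 genes and 0 members. After GC correction 326 genes (1.85%) and 0 members were called, with MTF1 at 0.68 (adjusted p = 0.114) and MT2A at 0.73 (adjusted p = 0.227). MTF1 had the smallest adjusted p of the members (log2 0.58, SE 0.29, adjusted p = 0.414). MT2A was at 1.03 (SE 0.55, adjusted p = 0.432) and SLC30A1 at -0.69 (SE 0.38, adjusted p = 0.437), each a mean of unlike values in the lines. Without the HGC-27 control this fit keeps the contrast of AGS alone, and without the AGS control that of HGC-27 alone, each with 1 control library.

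Other genes of metal handling were followed as lists, again with the AGS libraries labelled NINJ1 taken by their label although their NINJ1 message was the lower. Of the 9 other zinc exporters of the SLC30 family, 6 were tested. In AGS 0 of the 6 passed (median log2 0.27), where 15.0% of all genes did. SLC30A7, which loads zinc into the secretory pathway, was at 105.5 and 104.2 scaled CPM in AGS NINJ1, against 81.8 (log2 0.36, adjusted p = 0.0924). In HGC-27, 5 of 6 were lower and 1 higher (median -0.87), where 29.1% of all genes were lower and 34.0% higher. After GC correction 1 was lower and 2 higher, 3 of 6 where 48.8% of all genes passed. SLC30A7 was lower there at both settings (log2 -1.13, adjusted p = 8.44e-09; -0.41, adjusted p = 0.00168 corrected). SLC30A6, a partner of SLC30A5 in that pathway, was lower as counted only (log2 -0.90, adjusted p = 3.16e-06; -0.15, adjusted p = 0.320 corrected). SLC30A3, best known from synaptic vesicles, was the higher one, with 56 and 49 counts in HGC-27 NINJ1 against 1 in the control, a scaled ratio of 49.1 with a counting interval of 8.62 to 1958 (3.29 and 2.54 CPM against 0.137 after GC correction, adjusted p = 0.000159). Of the 5 called lower beside SLC30A1 as counted, SLC30A7 was the 1 called lower after correction.

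Of the 14 zinc importers of the SLC39 family, 11 were tested. In AGS 1 was higher and 1 lower (median -0.01), a share near the 15.0% of all genes. SLC39A6, an importer of the plasma membrane, was higher (112.7 and 119.2 scaled CPM in AGS NINJ1, against 83.0; log2 0.48, adjusted p = 0.0147), and SLC39A10, its close relative, was lower (88.0 and 84.9, against 113.7; log2 -0.40, adjusted p = 0.0491). In HGC-27, 6 were higher and 2 lower (median 0.79), where 34.0% of all genes were higher and 29.1% lower. After GC correction 7 were higher and 2 lower, where 48.8% of all genes passed. SLC39A10 was lower there too, at 65.6 and 53.2 scaled CPM in HGC-27 NINJ1, against 244.4 (log2 -2.04, adjusted p = 9.11e-15; -1.30, adjusted p = 4.24e-10 corrected). SLC39A13, a zinc transporter of the secretory pathway, was at 47.8 and 57.0 scaled CPM in HGC-27 NINJ1, against 2.34 (log2 4.48, adjusted p = 1.44e-16; 2.16 corrected). SLC39A3 was at 12.7 and 17.4 scaled CPM, against 0.758 (log2 4.30, adjusted p = 5.98e-12; 2.78 corrected). With 2 importers that have 0 counts in the control set at 3 counts, the HGC-27 median stayed at 0.79. Importers thus did not share a direction in either line. SLC39A1 counts are uncertain, since 60.8% of its exon bases lie under another gene annotated on the same strand.

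**Figure D4:**
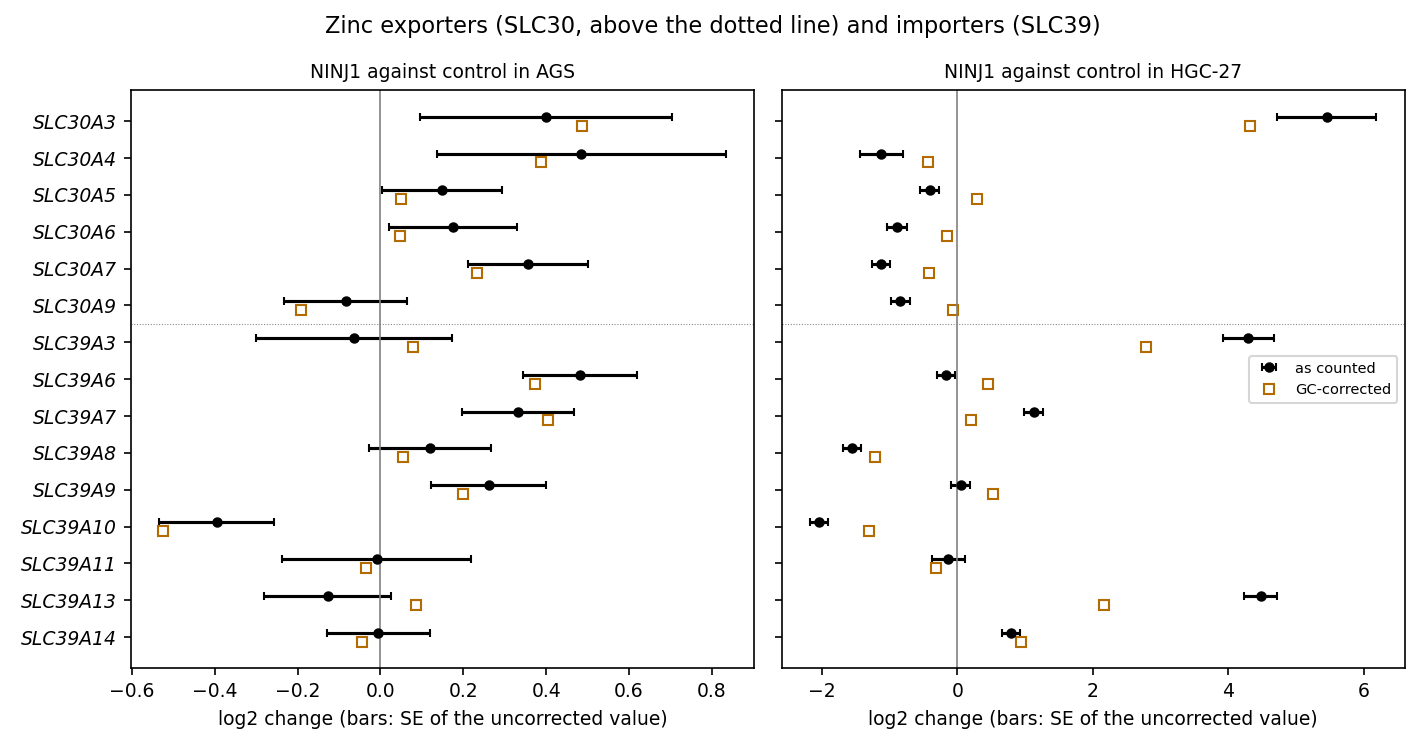
Log2 changes of 6 tested zinc exporters other than SLC30A1 (above the dotted line) and of 9 of 11 tested zinc importers in NINJ1 against control in AGS and in HGC-27, as counted (filled circles, bars are standard errors) and after GC correction (open squares); SLC39A1 and SLC39A4 are left out because the HGC-27 control has no count for them, and the horizontal axes differ in range. In AGS the values lie between -0.52 and 0.49, and in HGC-27 SLC30A3, SLC39A3 and SLC39A13 have the highest values at both settings.

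Of 12 copper handling genes 10 were tested. In AGS 1 was higher and 2 lower (median 0.25), and 2 and 2 after GC correction, where 15.0% and 18.2% of all genes passed. SOD1, the copper and zinc superoxide dismutase, was at 143.8 and 140.1 scaled CPM in AGS NINJ1, against 89.97 (log2 0.66, adjusted p = 0.00121). MT-CO2, the copper-binding subunit of cytochrome c oxidase encoded in mitochondria, was lower (log2 -0.73, adjusted p = 6.02e-05), as was the copper pump ATP7A (log2 -0.49, adjusted p = 0.0204). In HGC-27, 2 were higher and 3 lower (median 0.06), where 63.0% of all genes passed, and 4 and 4 after GC correction, where 48.8% did. ATP7A was at 38.6 and 32.0 scaled CPM in HGC-27 NINJ1, against 126.5 (log2 -1.84, adjusted p = 5.36e-13; -1.07 corrected). SOD1 was lower, at 123.1 and 151.8 scaled CPM, against 234.4 (log2 -0.77, adjusted p = 5.36e-06; -1.56 corrected). CCS, the copper chaperone of SOD1, was higher as counted (log2 1.80, adjusted p = 2.96e-07) and lower after GC correction (-0.61, adjusted p = 0.0386), so it has no direction that holds at both settings. ATP7A was thus lower in the libraries labelled NINJ1 of both lines, of which the AGS ones had less NINJ1 message than their control, while SOD1 was higher in AGS and lower in HGC-27, with a tested difference of 1.43 (adjusted p = 1.61e-07). SCO2 had 0 counts in each library and lies under a second annotated entry of the same name.

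Genes known to respond to cadmium and arsenite, which also induce metallothioneins, include heat shock and glutathione genes. In AGS 8 of 12 were higher and 0 lower (median log2 0.57), as counted and after GC correction. Of all genes 5.73% were higher as counted, and 18.2% passed in either direction after correction. DNAJB1, a heat shock co-chaperone, was at 205.6 and 242.4 scaled CPM in AGS NINJ1, against 74.7 (log2 1.58, SE 0.16, adjusted p = 4.95e-09). HSPA1A and HSPA1B, nearly identical copies of the inducible Hsp70 whose reads may be split, were higher by 2.19 (adjusted p = 1.75e-08) and 1.87 (adjusted p = 5.86e-08). GCLM, a subunit of the enzyme that starts glutathione synthesis, was at 151.3 and 160.2 scaled CPM, against 75.4 (log2 1.05, adjusted p = 1.04e-06). HMOX1, the haem oxygenase gene that these metals are known to induce, was not among the 8 (11.7 and 11.9 scaled CPM in AGS NINJ1, against 14.8; log2 -0.32, adjusted p = 0.397). The AGS libraries labelled NINJ1 thus had more heat shock and GCLM message beside metallothioneins that did not pass.

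In HGC-27, 8 of these 12 were higher and 2 lower (median 1.94, also with 2 genes without a control count set at 3 counts), where 34.0% of all genes were higher and 29.1% lower. After GC correction 10 were higher and 1 lower, where 48.8% of all genes passed. HSPA1B was at 109.9 and 163.9 scaled CPM in HGC-27 NINJ1, against 6.82 (log2 4.33, adjusted p = 5.83e-16; 2.69 corrected). Its near copy HSPA1A was at 130.9 and 188.4 scaled CPM, against 42.8. After GC correction HSPA1A was at 110.0 and 140.2 CPM, against 118.3, so the 2 entries did not give the same picture. DNAJB1 was at 238.1 and 309.7, against 69.4 (log2 1.98, adjusted p = 1.24e-12; 1.28, adjusted p = 2.39e-08 corrected). ATF3, a stress-induced transcription factor, was at 67.2 and 70.8, against 14.9 (log2 2.21, adjusted p = 1.57e-12; 2.40, adjusted p = 2.05e-11 corrected). HMOX1, which did not pass in AGS, was at 22.2 and 36.8 scaled CPM in HGC-27 NINJ1, against 3.31 (log2 3.15, adjusted p = 2.85e-11; 1.62, adjusted p = 3.48e-05 corrected), with a tested difference between the lines of -3.48 (adjusted p = 1.71e-09; -1.80, adjusted p = 0.000350 corrected). That difference did not pass for DNAJB1 (-0.40, SE 0.21, adjusted p = 0.109), whereas it passed for ATF3 (-2.06, SE 0.24, adjusted p = 7.38e-09).

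Glucocorticoids induce metallothioneins as well, MT2A among them. Of 9 genes of that response 8 were tested. In AGS 0 were higher and 4 lower (median -0.29), where 9.30% of all genes were lower, and 1 and 3 after GC correction. SCNN1A, an epithelial sodium channel subunit, was lower by -1.58 (adjusted p = 6.43e-06), the transcription factor KLF9 by -0.93 (adjusted p = 0.000104) and the clock gene PER1 by -0.48 (adjusted p = 0.0206), the last not after GC correction (-0.26, adjusted p = 0.0987). In HGC-27, 4 were higher and 3 lower (median 0.50), where 63.0% of all genes passed, and 2 and 1 after GC correction, where 48.8% did. PER1 was at 88.7 and 109.8 scaled CPM in HGC-27 NINJ1, against 7.99 (log2 3.63, adjusted p = 9.80e-17; 1.32, adjusted p = 2.43e-07 corrected), and NR3C1, the glucocorticoid receptor, was lower (log2 -1.68, adjusted p = 1.63e-13; -0.91, adjusted p = 3.38e-08 corrected). DUSP1, a phosphatase that acts on MAP kinases, was higher (log2 1.79, adjusted p = 4.55e-13; 0.85, adjusted p = 4.46e-07 corrected).

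Between the lines, in NINJ1 libraries, 3 exporters were higher and 1 lower in AGS of 6, 5 importers higher and 2 lower of 11, and 3 copper genes higher and 0 lower of 10, where 20.2% of all genes were higher and 20.0% lower. Their medians were 0.41, 0.18 and 0.06. Of the importers, SLC39A4, known for zinc uptake in the intestine, was at 11.5 and 13.3 scaled CPM in AGS NINJ1, against 3.20 and 3.56 in HGC-27 NINJ1 (log2 1.87, adjusted p = 2.28e-08). ATP7A was higher in AGS (log2 0.85, adjusted p = 1.37e-06). Of the cadmium and arsenite genes 1 was higher and 8 were lower in AGS (median -0.40), among them HMOX1 (log2 -1.32, adjusted p = 7.45e-07) and ATF3 (-1.07, adjusted p = 2.71e-08). Of the glucocorticoid genes 3 were higher and 4 lower (median -0.31), DUSP1 by -2.02 (adjusted p = 7.09e-17). In NINJ1 libraries AGS thus had more MT2A and MT1E and less HMOX1 and ATF3 message than HGC-27. In the controls, 1 library each, HMOX1 and ATF3 stood the other way, at 14.8 and 29.5 scaled CPM in AGS, against 3.31 and 14.9 in HGC-27 (11.6 and 30.2, against 7.84 and 13.3, after GC correction).

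The genes most like MT2A over the 6 libraries, by Pearson correlation of log2 scaled CPM among 9870 genes with a mean of at least 10, were TBC1D16 (0.998), PDE4A (0.997), PASK (0.997), PLAUR (0.997) and MED15 (0.997). Those most like SLC30A1 were GHITM, SAR1B, RIF1, AP3B1 and TMLHE (each 0.998). Each correlation includes the HGC-27 control, the library farthest from the others for both genes. After GC correction the correlations with MT2A were 0.767, 0.883, 0.994, 0.667 and 0.107 in the order given, and those with SLC30A1 were 0.995, 0.832, 0.998, 0.992 and 0.990. None of the 5 genes like MT2A and 1 of the 5 like SLC30A1, RIF1, was among the 5 most alike after correction, so these neighbours depend on how GC content is treated.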

How the data were processed

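Polyadenylated RNA of 6 libraries was sequenced on an Illumina NovaSeq after NEBNext Ultra preparation, per the labels' protocols. HISAT2, HTSeq 0.13.5 and GRCh38 were used, per the submitters' processing notes; the version of HISAT2, the annotation release and the strand setting are not given in the sources used here. The authors deposited 1 table per library with, for each gene, an unnormalized read count and its FPKM, per the file headers. The deposited FPKM equals the count over a fixed length per gene and the library total, to a relative departure of at most 8.32e-09 over 6974 genes with at least 200 counts. That length is 1299 bases for MT2A and 1773 for MT1X, which bears on comparisons between genes. Symbols, coordinates and GC content came from GENCODE 29, in which 51091 of 51103 symbols were the same.

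Genes were kept by filterByExpr (minimum count 10; 17617 genes, 17208 on 4 libraries) and scaled by TMM. The two-sided quasi-likelihood F test of edgeR 4.0.16 (R 4.3.3) was fitted over all genes with 1 mean per line and treatment. There the 2 pairs of NINJ1 libraries alone give the spread, and the single controls are assumed to vary like them. The comparison over both lines used the line as an additive term. Adjusted p is Benjamini-Hochberg over all genes, with a threshold of 0.05, and SE is the log2 change over the square root of F. The script was tested on simulated data. The GC correction took from each library the median log2 deviation in 20 bins of transcript GC content as an offset.

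The members and all lists (zinc exporters and importers, copper handling, cadmium and arsenite response, glucocorticoid response, cell type markers) were chosen with earlier results of these data known. All members and NINJ1 were named always, up to 3 genes of smallest p per list and comparison, and the 5 genes most correlated with MT2A and with SLC30A1; HMOX1, SLC30A7 in AGS and other genes named for context were chosen after their values were seen. Alternatives were DESeq2 1.42.0, its size factors, no filter, GC correction, title lines, a replicate block and libraries left out. Replicate numbers did not pair the libraries. Intervals and floors of 3 counts cover counting error only.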

Additional observations from a re-analysis of the deposited data

Results flagged for a closer look

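The NINJ1 contrast differed between the lines, by a test of the difference itself (AGS minus HGC-27, log2), for 4 of the 6 tested members. Of all genes 54.2% passed that test, so 4 of 6 is a share near the background. The difference was -2.35 for MT2A, from a change of 0.04 in AGS and 2.38 in HGC-27. For MT1E it was -1.74, from 9 counts in the HGC-27 control, and it did not pass after GC correction. For MTF1 it was 0.96, with the AGS control as the low library. For SLC30A1 it was 1.61, with the HGC-27 control as the high library. The AGS libraries labelled NINJ1 are taken by their label, although they had less NINJ1 message than the AGS control. Each of these rests on 1 control library per line, and the HGC-27 control stands apart in GC content; the part of that library in the differences was not tested beyond the correction for GC content given above.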

How the results depend on the processing

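Between 24 and 28 of 28 values kept direction and side of the threshold under DESeq2's size factors (28), no filter (27), GC correction (24), a replicate block (28) and the block with GC correction (24), and 25 of 25 did with DESeq2. Without a filter the difference between lines for MT1X became called (adjusted p = 0.0427). The replicate block changed no call, and same-numbered libraries of the lines did not deviate together (correlation 0.00546 across 17617 genes, 2 pairs). With the lines of the titles the members called numbered 1 in HGC-27, 0 in AGS, 0 for the difference and 0 between lines, against 3, 1, 4 and 3. Of all genes 2149 were then called in HGC-27 and 0 in AGS, against 11103 and 2648. Under those lines the sign turned for MT2A in AGS (-0.69), and between lines for MT1F (0.42), MT1X (-0.46), MT2A (-0.18) and MTF1 (0.070); the cause was not tested beyond the line markers given above. With 1 library left out, MT2A in HGC-27 ran from 2.37 to 2.44 and SLC30A1 there from -1.54 to -1.33 (log2). MTF1 in AGS ran from 1.09 to 1.10. Members called are not counted for these fits, since a NINJ1 group can then hold 1 library as well. MT2A in AGS turned to -0.084 without the replicate 2 titled HGC-27 (its highest value with a library left out being 0.15), and MT1X between lines to -0.31 (highest 0.91) without the replicate 2 titled AGS, neither being called. Over both lines, leaving out the HGC-27 control made the values those of AGS: MT1E -0.25, MT1X -0.66 and SLC30A1 0.20. With GC correction as well, an alternative chosen after seeing the data, they were -0.21, -0.61 and 0.065. Leaving out the AGS control put MT1E at 1.53, MT1X at 2.41 and SLC30A1 at -1.37. Contrasts within a line could not be fitted without both replicate 2 libraries, since no residual degrees of freedom remain. Depth limits MT1F and MT1X, with at most 22 counts, and the single control of each line limits every NINJ1 contrast.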

Other observations

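HBA1, a globin gene listed as a blood cell marker, had 26 and 26 counts in AGS NINJ1 libraries and 19 in the AGS control, against 0 in each HGC-27 library, while HBB had 0 in each library. In HGC-27 NINJ1 libraries SLC39A4 had 49 and 56 counts, against 0 in the HGC-27 control. With 3 counts set for the control it was at least 16.4-fold higher, and it was also at 54.8% GC, in the range in which that control was low.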
